A study of Mus musculus with 8 samples.

Results

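The dependence of the liver's diet response on Xbp1 was measured as a difference of differences: the change from chow to high fat diet in knockout livers minus the same change in flox livers, on the log2(RPKM + 1) scale (RPKM, reads scaled to transcript length and to the mapped reads of the library). A value of 1 on this scale, called the interaction here, means that the knockout change lay 1 log2 unit above the flox change, and -1 that it lay 1 unit below. Genes entered when they reached 1 RPKM in at least 1 group and were not listed at exactly 0 in any group, which held for 10319 of the 22923 symbols in the files. Of the others with at least 1 RPKM in some group, 32 were left out because a group was listed at 0. An interaction of at least 1 was found for 68 genes (0.659% of those kept) and of at most -1 for 59 (0.572%), together 127 genes (1.23%). These shares are the background for the counts of calls in the gene lists below.

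The livers came from C57BL/6 mice labelled Xbp1flox, the controls with a floxed Xbp1 gene, or Xbp1-/-, in which Xbp1 was deleted in the liver. For 4 weeks each genotype received regular chow, or a diet high in fat to which a fructose-rich corn syrup equivalent was added. The cohorts of 4 mice were pooled into 2 libraries each, but the files give 1 RPKM value for each gene and group, so neither a standard deviation nor a test could be computed and every fold or interaction below has no replicate check. The sources used here name neither the Cre driver nor the sex or age of the mice.

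XBP1 switches on genes of the unfolded protein response. When unfolded proteins collect in the endoplasmic reticulum (ER), the kinase and ribonuclease IRE1 removes a short intron from Xbp1 mRNA, and the spliced message encodes the active factor, which turns on genes for protein folding, secretion and ER-associated degradation. In the liver XBP1 is also known for its role in lipid synthesis, and without it IRE1 is overactive and degrades further mRNAs. SREBP2, a factor held in the ER membrane by sterols, controls the enzymes of cholesterol synthesis, and LXR, a receptor for oxidised sterols, controls genes of sterol export.

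Xbp1 itself was at 112 RPKM in flox livers on chow, 90.7 on high fat diet, and 44.2 and 34.1 in knockout livers on the same diets. The knockout level was 39.6% of the flox level on chow and 37.6% on high fat diet, so both knockout groups lay below both flox groups, and the interaction was -0.07. Ern1, which encodes IRE1 and was at 3.86, 5.39, 4.69 and 6.10 RPKM in the same order of groups, had an interaction of -0.08. In all sentences that give 4 levels below, the order is flox chow, flox high fat, knockout chow, knockout high fat.

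The knockout group on high fat diet stood apart in whole-library values. The summed RPKM was 513694, 461725, 461392 and 367414, so that group was at 0.715 of flox livers on chow and the other 2 at 0.899 and 0.898. Small RNA genes took 0.161%, 0.0939%, 0.137% and 4.93% of the summed RPKM, the last mostly Mir135a-1, at 17762 RPKM in that group and listed at 0 in the other 3. The interaction, a contrast of all 4 groups, had a median of -0.10 over all 10319 genes and of -0.18 over the 3252 genes with at least 10 RPKM in every group. Most genes kept thus lay below 0, which is the background for the counts of signs in the gene lists below. When every group was rescaled to a common median, the median interaction moved to 0.02, and the calls became 95 positive and 36 negative. When groups were rescaled to a common sum without the 50 most abundant genes, it moved to 0.03 and the calls became 105 and 35. The share of calls that were positive was 53.5% as deposited, 72.5% and 75.0% under these rescalings. Each of the 68 positive calls was kept under both, whereas 36 and 35 of the 59 negative ones were. Among negative genes described below, Acaa1b, Agxt, Bhmt, Cyp8b1, Elovl3, Fitm1, G0s2, Insig2, Lbp, Mup3, Ndufb2 and Ndufb6 were no longer called under either rescaling, and Hal not under the second. A pseudocount of 5 RPKM instead ended the calls of genes with low levels, among them Acacb, Cdkn1a, Cidec, Gpx2, Bcl6, Mvd and Phlda3, and of some near the threshold, among them Gsta2 and Lbp.

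**Figure D1:**
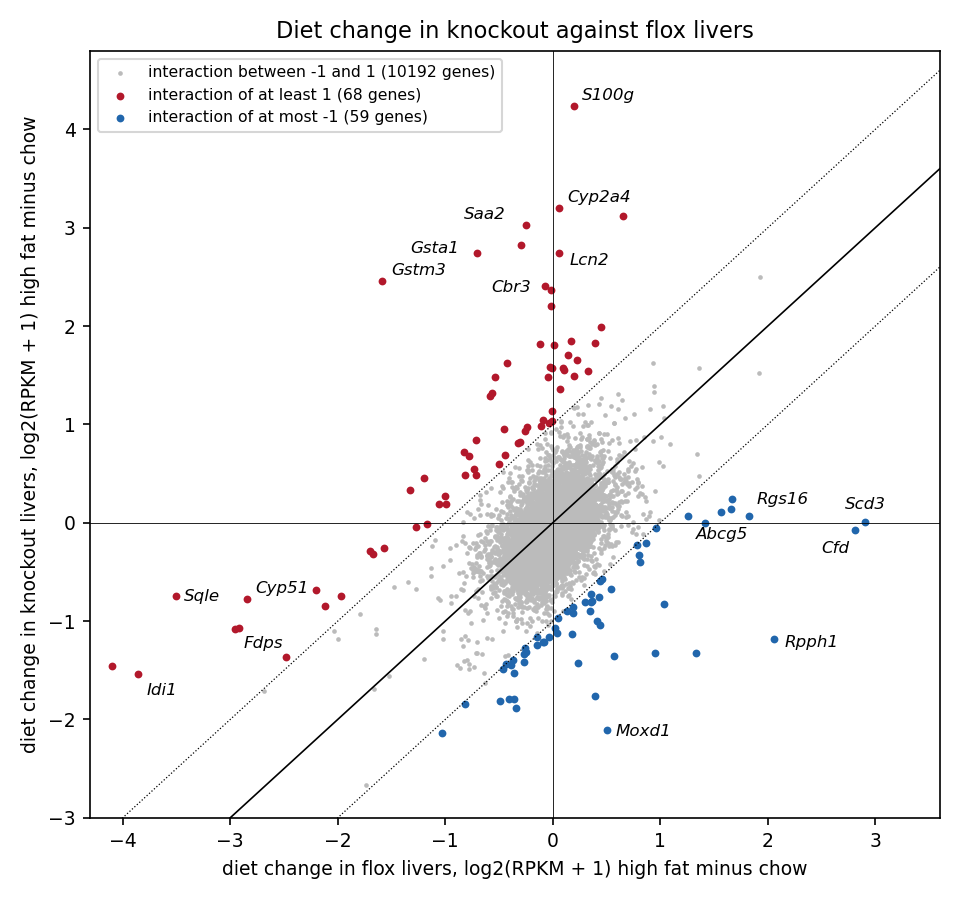
Diet change (high fat minus chow, log2(RPKM + 1)) in knockout livers on the vertical axis against flox livers on the horizontal axis, each point 1 of 10319 genes. The solid line marks equal change and the dotted lines an interaction of 1 and -1; the 68 genes above (red) include a cloud near 0 on the flox axis and a tail of cholesterol genes at the left, and the 59 below (blue) include Abcg5 and Rgs16 at the right.

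The diet changed more genes past 1 log2 unit in knockout than in flox livers. In flox livers 21 genes rose (0.204%) and 43 fell (0.417%) with the diet, and in knockout livers 65 rose (0.630%) and 80 fell (0.775%). Of these, 5 rose in both genotypes, which is 23.8% of the flox and 7.69% of the knockout list. Another 17 fell in both, or 39.5% and 21.3% of the lists. The 5 shared rises were Acot3, Apoa4, Krt23, Mfsd2a and Serpina7, none with an interaction past the threshold. Between the genotypes, 26 genes were higher (0.252%) and 140 lower (1.36%) in knockout livers on chow, and 108 higher (1.05%) and 190 lower (1.84%) on high fat diet. All these counts are on values that were not rescaled. Among genes with at least 10 RPKM in every group, the diet change had a median of -0.09 in flox and -0.27 in knockout livers. The knockout minus flox difference there had a median of -0.06 on chow and -0.27 on high fat diet. Apoa4, an apolipoprotein of triglyceride-rich particles, rose 3.84-fold in flox and 5.74-fold in knockout livers.

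Among the 68 genes with a positive interaction, 33 rose with the diet in knockout livers while their flox change stayed under the threshold, and 14 fell in flox livers while their knockout change stayed under it. A further 5 fell in both genotypes, by more in flox livers, 15 passed in neither, and 1, Gstm3, fell in flox and rose in knockout livers. Among the 59 with a negative interaction, 29 fell in knockout livers alone by this threshold, 9 rose in flox livers alone, 18 passed in neither, 2 moved in opposite directions (Rpph1 and Fmr1nb) and 1, Elovl3, fell in both. Knockout livers on high fat diet had the highest level of the 4 groups for 41 of the 68 positive genes, against 17.3% of all genes kept. They had the lowest for 48 of the 59 negative genes, against 52.0% of all. Those groups enter the interaction itself, so these shares describe the calls and test nothing.

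Among genes with at least 5 RPKM in some group, those just inside the upper threshold were Ccbl2 at 1.10, Hmgcs1 at 1.11 and Hist1h2ao at 1.13, and just outside it Sc4mol at 0.97 and Gm2a at 0.96. On the lower side Agxt, Acaa1b and Ndufb6 were each at -1.01 and Sds, Aox3 and Macrod1 each at -0.99. The threshold thus separated genes that differed little.

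Cholesterol synthesis enzymes fell with the diet by more in flox than in knockout livers. Of 22 enzymes measured, 11 (50%) had an interaction of at least 1, against 0.659% of all genes. None had one of at most -1, and 20 of the enzymes had one above 0. Their median was 1.04, against -0.10 over all genes. The diet change had a median of -1.83 in flox and -0.72 in knockout livers, with 16 enzymes falling by at least 1 log2 unit in flox and 7 in knockout livers. The count was 12 under both rescalings and 9 with a pseudocount of 5 RPKM.

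Following the order of the pathway, the first called enzyme was Hmgcs1, which makes HMG-CoA, at 150, 26.2, 116 and 44.2 RPKM. It fell by 2.48 log2 units in flox and by 1.37 in knockout livers. Idi1, which interconverts the isoprenoid building blocks, was at 113, 6.89, 78.1 and 26.3 RPKM, an interaction of 2.32. Fdps, which joins them into farnesyl pyrophosphate, was at 261, 32.8, 132 and 62.0 RPKM, an interaction of 1.87.

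The sterol steps of the pathway followed. Sqle, which makes squalene epoxide, was at 30.7, 1.79, 19.9 and 11.4 RPKM and had the largest interaction of the list, 2.76. On high fat diet it stood at 0.0582 of its chow level in flox livers and at 0.575 in knockout livers. Cyp51, the lanosterol demethylase, was at 45.2, 5.42, 23.9 and 13.5 RPKM, an interaction of 2.07. Nsdhl, which acts after it, was at 62.3, 7.37, 39.9 and 18.5 RPKM, an interaction of 1.85. On chow each of Hmgcs1, Idi1, Fdps, Sqle, Cyp51 and Nsdhl was lower in knockout than in flox livers, and on high fat diet each was higher. Mvd, Lss, Pmvk and Dhcr7, further enzymes of the pathway, had interactions of 1.52, 1.41, 1.28 and 1.22. Acss2, which makes acetyl-CoA from acetate and is outside this list, was at 93.9, 28.9, 41.0 and 32.8 RPKM, an interaction of 1.35.

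**Figure D2:**
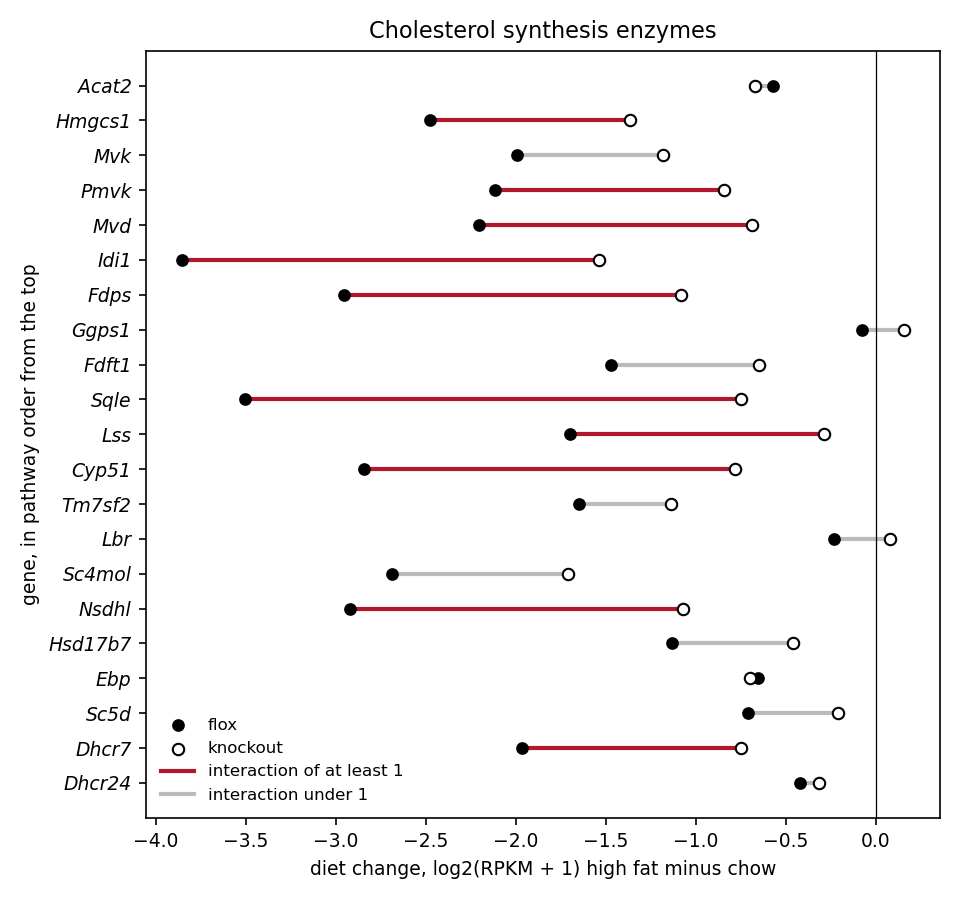
Diet change (high fat minus chow, log2(RPKM + 1)) of cholesterol synthesis enzymes, in pathway order from the top, in flox (filled) and knockout (open) livers. The red bars mark enzymes with an interaction of at least 1, among them Sqle at -3.51 and -0.75, and the knockout point lies to the right of the flox point for each enzyme drawn except Acat2 and Ebp.

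The promoter of Hmgcs1 is shown because it carries a match to the sterol response element, the site bound by SREBP factors, searched as TCACNCCAC on both strands of the window from 250 bases before to 50 bases after each gene's start (RefSeq, build GRCm38.p6). The window lies at chr13:119690101-119690400 on the plus strand, the capitals mark the match, and its first base is 137 bases before the start.
Hmgcs1: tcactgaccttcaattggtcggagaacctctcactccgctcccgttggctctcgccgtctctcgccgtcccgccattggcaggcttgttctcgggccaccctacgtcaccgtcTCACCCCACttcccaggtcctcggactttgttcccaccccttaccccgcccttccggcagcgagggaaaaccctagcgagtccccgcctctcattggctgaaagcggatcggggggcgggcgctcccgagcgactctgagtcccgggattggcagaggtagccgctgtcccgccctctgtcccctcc
A match was present in 1.44% of all 27025 promoters in the table, in 4 of the 53 positive genes with an entry (7.55%: Cyp2a4, Hmgcs1, Saa3 and Spp1) and in none of the 42 negative genes with one. Of the 16 cholesterol synthesis enzymes with an entry, Hmgcs1 alone held these letters. A match is a run of letters and was not measured as a bound site.

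Few regulators of sterol synthesis and uptake passed the threshold. Of 18 genes of SREBP2 processing and sterol uptake, none had a positive interaction past the threshold and 1 a negative one. That gene was Insig2, which retains SREBP factors in the ER, at 29.9, 52.8, 28.6 and 22.6 RPKM, an interaction of -1.13. Srebf2, which encodes SREBP2, was at 9.15, 5.25, 7.17 and 5.49 RPKM, an interaction of 0.37.

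Among genes of sterol export and LXR targets, Abcg5 and Abcg8 had a negative interaction. They encode the paired subunits of the transporter that moves sterols into bile, and both rose with the diet in flox livers. Abcg5 was at 32.0, 96.7, 30.4 and 33.0 RPKM, a 3.02-fold rise in flox and a 1.08-fold difference in knockout livers (interaction -1.45). Abcg8 was at 22.4, 61.6, 12.96 and 12.98 RPKM, with an interaction of -1.42. The flox high fat group stood above the other 3 groups for both genes. These were the only 2 calls among the 14 measured, whose median was -0.10, equal to that of all genes. The rescalings kept both, added 1 positive call and moved the median to 0.03 and 0.05. Srebf1, an LXR target encoding the fatty acid synthesis factor SREBP1, was at 79.7, 143, 35.2 and 32.4 RPKM with an interaction of -0.96, short of the threshold. Apoe, another member, was listed at 0 in both high fat groups and was left out.

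Abcg5 and Abcg8 lie head to head (chr17:84658234-84700333, GRCm38), so the promoter of Abcg5 is shown with the 209 bases that it shares with Abcg8's own window in capitals. It lies at chr17:84682962-84683261 on the minus strand.
Abcg5: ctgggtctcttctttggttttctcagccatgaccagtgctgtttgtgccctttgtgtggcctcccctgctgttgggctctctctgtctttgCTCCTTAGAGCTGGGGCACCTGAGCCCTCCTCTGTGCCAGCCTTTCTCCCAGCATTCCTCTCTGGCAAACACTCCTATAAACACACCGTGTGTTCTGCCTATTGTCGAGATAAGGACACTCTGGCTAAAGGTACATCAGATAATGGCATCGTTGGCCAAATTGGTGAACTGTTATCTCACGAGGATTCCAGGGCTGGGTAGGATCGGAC
No match to the sterol response element was counted in the negative genes, these 2 included, which says no more than that the letters are not in these windows.

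Among fatty acid synthesis genes, 2 of 20 had a positive interaction (Acss2 and Acacb) and 2 a negative one (Scd3 and Elovl3), 1 and 1 with a pseudocount of 5 RPKM and 3 and 1 under the rescalings. Acacb, the acetyl-CoA carboxylase at mitochondria, was at 7.92, 4.46, 2.18 and 4.69 RPKM, an interaction of 1.55. Scd3, a stearoyl-CoA desaturase, was at 0.0156, 6.62, 0.00416 and 0.0125 RPKM, an interaction of -2.90. Reads of Scd3 may be shared with its close relative Scd1, which was listed at 929, 0, 264 and 894 RPKM and was left out. The group in which Scd3 was high is the group in which Scd1 was listed at 0, so the Scd3 value is uncertain.

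Lipid droplet genes leaned negative, with 3 of 17 (17.6%) past the threshold, against 0.572% of all genes, none positive, and a median of -0.49. Under both rescalings, and with a pseudocount of 5 RPKM, 1 call was left. Cidec, which enlarges lipid droplets, was at 0.989, 3.74, 1.33 and 1.44 RPKM, an interaction of -1.19. Fitm1, which helps droplets form, was at 50.5, 57.6, 75.4 and 39.5 RPKM, an interaction of -1.10. G0s2, an inhibitor of triglyceride lipase, was at 86.1, 149, 81.7 and 69.7 RPKM, an interaction of -1.01. Cfd, adipsin, which is known as an adipocyte and complement gene, was at 0.533, 9.76, 0.257 and 0.193 RPKM, an interaction of -2.89. Cidec, G0s2 and Cfd were highest in flox livers on high fat diet.

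Elovl3, a fatty acid elongase that is also male-biased in mouse liver, fell in both genotypes, by 1.03 in flox and by 2.13 in knockout livers. Its levels were 60.5, 29.1, 85.5 and 18.7 RPKM, highest in knockout livers on chow and lowest in knockout livers on high fat diet.

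Glutathione S-transferases, which conjugate electrophiles to glutathione, held some of the largest interactions. Of 22 measured, 6 (27.3%) were called positive, against 0.659% of all genes, and none negative. The median was 0.35, and the count stayed at 6 under both rescalings. Gstm3 was at 60.0, 19.4, 68.9 and 384 RPKM. On chow the genotypes lay 1.15-fold apart, and on high fat diet knockout livers were 19.8-fold higher, an interaction of 4.04. Gsta1 was at 3.03, 1.48, 4.79 and 37.8 RPKM, an interaction of 3.45. Gstm1, the most abundant of the 6, was at 1290, 778, 1817 and 2660 RPKM, an interaction of 1.28. Gstm2, Gsta2 and Gm3776 (a Gsta-like gene) were the other 3, at 1.20, 1.18 and 3.12. The 6 lie in 2 clusters, Gstm1, Gstm2 and Gstm3 at chr3:107963696-108017973 and Gsta1, Gm3776 and Gsta2 at chr9:78230656-78355788, and their reads may be shared between close copies. In the whole list 13 interactions were above 0 and 9 below. Gstp1, at 4407, 2492, 4266 and 1611 RPKM, had -0.58, and Mgst1, at 3957, 3827, 4039 and 2670 RPKM, had -0.55. The summed level of the list was 12920, 9482, 13335 and 9276 RPKM, lowest in knockout livers on high fat diet.

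The wider list of NRF2 targets, genes for detoxification and redox balance, shares members with the transferases. Of 38 measured, 3 (7.89%) were positive, against 0.659% of all genes (5 and 7 under the rescalings), and none negative, with a median of 0.17. Cbr3, a carbonyl reductase, was at 0.362, 0.299, 1.25 and 10.9 RPKM, an interaction of 2.48. Gpx2, a glutathione peroxidase, was at 0.0385, 0.0290, 0.0549 and 3.87 RPKM, an interaction of 2.22. The third was Gstm1, which is also in the transferase list. Nqo1, a textbook NRF2 target, was at 3.27, 3.12, 4.81 and 9.13 RPKM, an interaction of 0.85 that did not pass. A match to the antioxidant response element core, searched as TGACNNNGC, was found in 13 of 33 NRF2-target promoters (39.4%), 4 of 20 transferase promoters, 9.43% of the positive genes' and 13.99% of all promoters.

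Acute phase proteins, made by hepatocytes under inflammatory signals, held 4 called genes that were lowest in knockout livers on chow and rose there with the diet: Saa1, Saa2, Lcn2 and Orm2. Of 29 measured, 6 (20.7%) were called positive and 2 (6.90%) negative, against 0.659% and 0.572% of all genes. The median was 0.16, and the counts were 8 and 1 or 9 and 1 under the rescalings. Saa2, serum amyloid A2, was at 1699, 1433, 197 and 1613 RPKM. The knockout level was 0.116 of the flox level on chow, while the genotypes were close on high fat diet, and the interaction was 3.27. Saa1 was at 2201, 2022, 425 and 1498 RPKM, an interaction of 1.94. Lcn2, lipocalin 2, was at 94.2, 98.1, 26.6 and 184 RPKM, an interaction of 2.69. Orm2, an acid glycoprotein, was at 143, 141, 63.4 and 332 RPKM, an interaction of 2.39. Orm1, at 1921, 1412, 567 and 912 RPKM, was also lowest in knockout livers on chow, with a knockout diet change of 0.69 that did not pass and an interaction of 1.13. Saa3, the sixth, had an interaction of 1.88. Saa4, which is not an inducible serum amyloid, was at 80.5, 103, 60.9 and 32.2 RPKM and had an interaction of -1.25. Lbp, the lipopolysaccharide-binding protein, had -1.02. The Saa genes, and likewise the Orm genes, are close relatives beside each other, so the split of reads between them is uncertain.

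Genes of the unfolded protein response were taken as separate lists. The ER chaperones and disulfide enzymes, the classical targets of XBP1 and ATF6, had no call among 32 measured, a median interaction of 0.17, and 26 values above 0. Their median knockout minus flox difference was -0.75 on chow and -0.57 on high fat diet. Hspa5, the chaperone BiP, was at 204, 181, 99.8 and 136 RPKM, an interaction of 0.61. None of 40 genes of ER translocation and glycosylation and none of 39 of ER to Golgi transport was called. Among 24 genes of ER-associated degradation 1 was, Derl3, which encodes a channel component and was at 7.42, 4.82, 2.92 and 9.95 RPKM, an interaction of 2.02. It was highest in knockout livers on high fat diet and lowest in knockout livers on chow.

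The promoter of Derl3 is shown because it holds the ER stress response element, the site bound by XBP1 and ATF6, on the opposite strand, in capitals, at chr10:75893148-75893447 on the plus strand.
Derl3: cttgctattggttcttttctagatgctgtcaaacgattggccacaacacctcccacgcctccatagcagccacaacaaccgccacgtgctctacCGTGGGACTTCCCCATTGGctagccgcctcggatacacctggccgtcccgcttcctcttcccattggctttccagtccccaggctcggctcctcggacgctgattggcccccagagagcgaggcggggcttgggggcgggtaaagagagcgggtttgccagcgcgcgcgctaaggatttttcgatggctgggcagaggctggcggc
That element was found in 2 of the 53 positive genes with an entry (3.77%, Acacb and Derl3), in 0.137% of all promoters, and in 8 of 28 ER chaperone promoters (28.6%). None of those chaperone genes was called.

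Another list held targets of ATF4 and CHOP, the factors downstream of the kinase PERK and of amino acid stress. Of 25 measured, 3 (12%) were positive, against 0.659% of all genes, and none negative, with a median of 0.04. With a pseudocount of 5 RPKM none was called, with 0.1 RPKM 4 were positive and 2 negative, and with the rescalings 5 were positive. Nupr1, a stress-induced nuclear protein, was at 0.590, 1.16, 1.09 and 7.34 RPKM, an interaction of 1.55. Ddit3, which encodes CHOP, was at 4.23, 4.99, 5.78 and 18.0 RPKM, an interaction of 1.29. Trib3, a pseudokinase induced by CHOP, was at 3.67, 2.78, 3.86 and 7.62 RPKM, an interaction of 1.13. Each of these was highest in knockout livers on high fat diet. Atf4 mRNA was at 41.5, 32.0, 38.3 and 32.0 RPKM, an interaction of 0.11. Chac1, another CHOP target, was at 2.70, 3.80, 2.17 and 1.22 RPKM and had the opposite sign, -0.89.

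The promoter of Nupr1 is shown because it holds TGATGCAA, the core shared by CHOP and ATF4 sites, on the opposite strand, marked in capitals, at chr7:126625421-126625720 on the minus strand.
Nupr1: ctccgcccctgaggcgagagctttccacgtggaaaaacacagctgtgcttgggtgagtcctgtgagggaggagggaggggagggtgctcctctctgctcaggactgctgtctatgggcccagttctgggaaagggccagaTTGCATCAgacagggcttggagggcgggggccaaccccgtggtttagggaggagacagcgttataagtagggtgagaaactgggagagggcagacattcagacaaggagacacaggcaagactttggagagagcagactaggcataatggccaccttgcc
This core was found in 3.77% of the positive genes' promoters, in 4.76% of the negative genes', in 5 of 21 ATF4 and CHOP target promoters and in 1.03% of all.

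The ribonuclease of IRE1 is known to degrade certain mRNAs in Xbp1-deficient liver, and 18 genes of a fixed list of IRE1 decay substrates were measured. Their median knockout minus flox difference was -1.59 on chow and -1.50 on high fat diet. Not every member was lower in knockout livers: Col6a1 was at 1.57, 1.92, 2.89 and 3.59 RPKM, and Sparc at 25.7, 24.1, 26.6 and 34.2 RPKM. Creb3l3, at 104, 112, 101 and 70.5 RPKM, was lower by only 0.05 log2 units on chow and by 0.66 on high fat diet. Ces1g, a carboxylesterase, was the 1 gene called, at 84.1, 70.3, 7.56 and 15.3 RPKM and an interaction of 1.19. The knockout level was below the flox level under both diets. Its relative Ces1c was at 1115, 900, 114 and 159 RPKM, an interaction of 0.78. With a pseudocount of 5 RPKM Ces1g was not called, and with 0.1 RPKM 2 genes of the list were. The list's median was 0.34, and the knockout deficit of Ces1g and of Ces1c was smaller on high fat diet than on chow.

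Genes of growth arrest and of proliferation were both among the positive calls. Cdkn1a, the cell cycle inhibitor p21, was at 0.677, 1.20, 2.21 and 10.4 RPKM, an interaction of 1.44. Phlda3, another p53 target, was at 0.523, 0.430, 1.02 and 3.16 RPKM, an interaction of 1.13. Bik, a pro-apoptotic gene, had an interaction of -1.18. Thus 2 of 30 genes of p53 and cell death (6.67%) were positive and 1 (3.33%) negative, against 0.659% and 0.572% of all genes. None of the 30 was called with a pseudocount of 5 RPKM. Ccnd1, cyclin D1, was at 3.84, 4.67, 5.59 and 19.7 RPKM, an interaction of 1.43. It and Mcm6, a replication helicase subunit with an interaction of 1.04, were the 2 calls (9.52%) among 21 cell cycle genes, against 0.659% of all genes. The list's median was 0.46, and the count was 1 with a pseudocount of 5 RPKM, 5 with 0.1 RPKM and 3 under the rescalings. Igfbp1, an insulin-like growth factor binding protein that fasting and stress induce, was at 7.44, 7.52, 13.5 and 49.7 RPKM, an interaction of 1.79.

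Several of the largest interactions belonged to genes that are low in normal liver. S100g, a calcium-binding protein of the intestine, was at 0.103, 0.263, 0.126 and 20.2 RPKM, an interaction of 4.04. Ly6d, a surface protein of epithelial and lymphoid cells, was at 0.617, 1.55, 2.78 and 31.8 RPKM, an interaction of 2.46. Both stood far higher in knockout livers on high fat diet than in the other 3 groups.

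**Figure D3:**
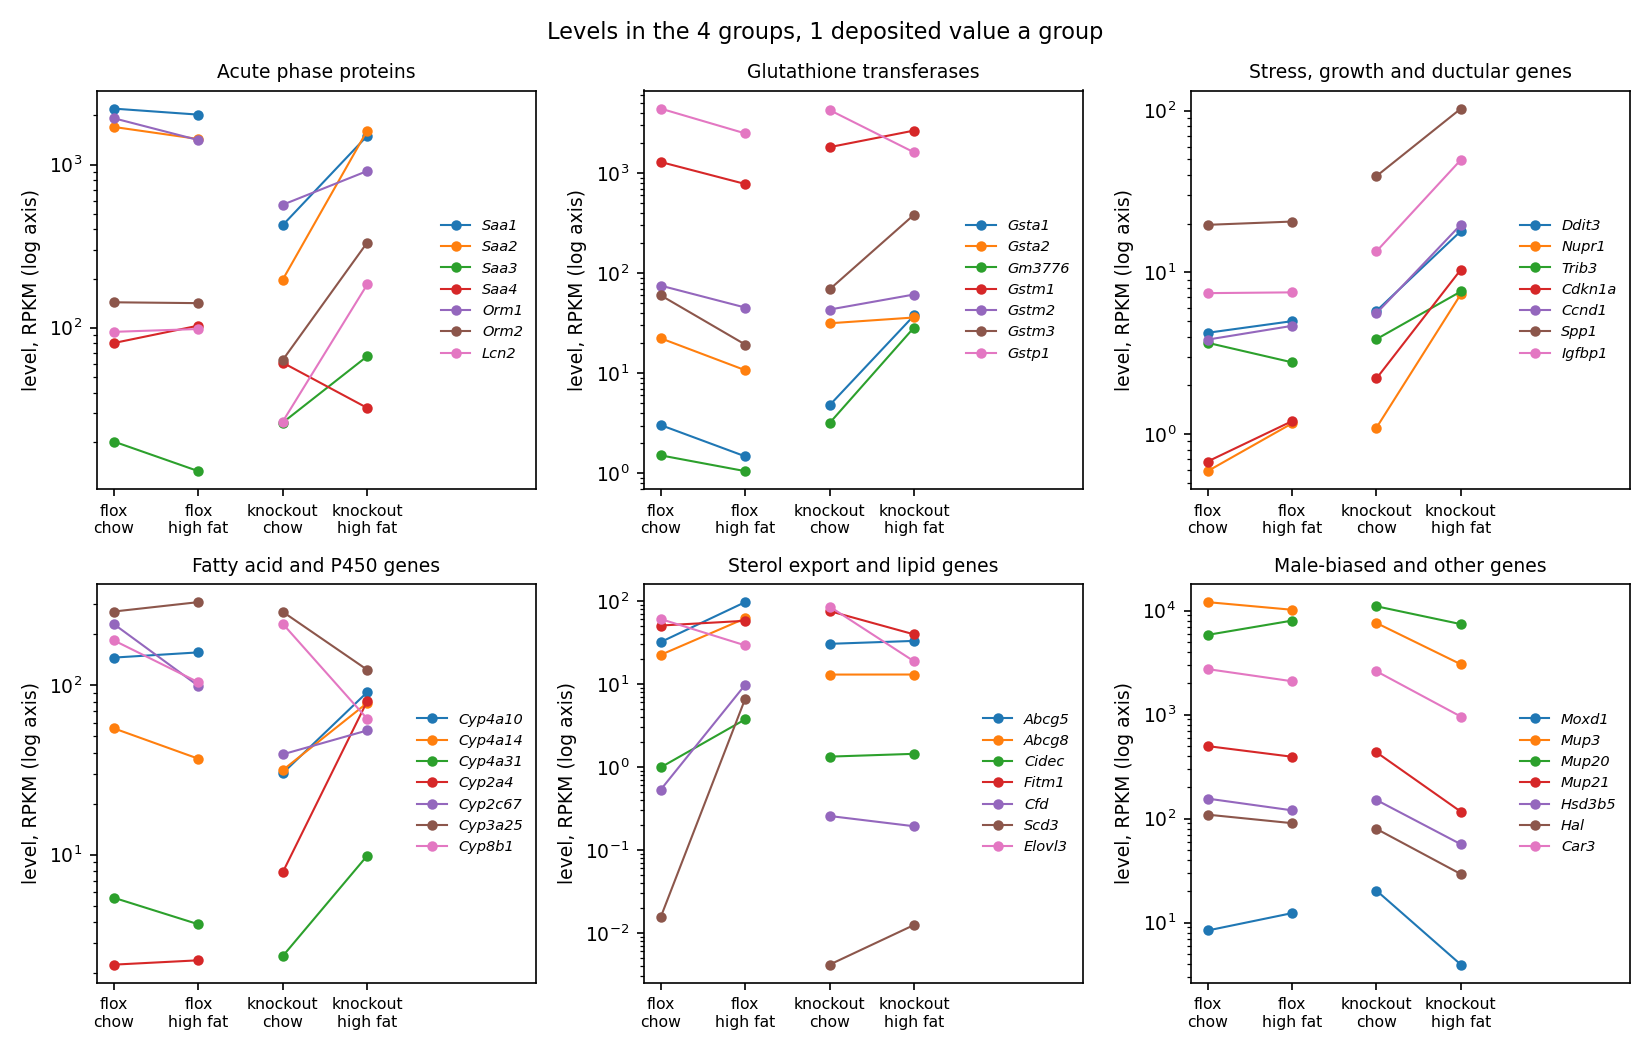
Level (RPKM, log axis) of genes of 6 kinds in the 4 groups, 1 deposited value a group, lines joining chow to high fat diet within a genotype. Saa2, Gstm3, Ddit3 and Cyp2a4 climb in knockout livers while the flox lines stay level or fall, and Abcg5 and Abcg8 climb in flox livers and stay level in knockout livers.

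Cytochrome P450 genes split. Of 36 drug-metabolising P450s, 5 (13.9%) were positive and 2 (5.56%) negative, against 0.659% and 0.572% of all genes. The median was -0.04, which the rescalings moved to 0.09 and 0.10. With a pseudocount of 5 RPKM 3 were positive, and with 0.1 RPKM 8. Cyp2a4, a testosterone hydroxylase that is female-biased in mice, was at 2.24, 2.38, 7.87 and 80.3 RPKM, an interaction of 3.14. Cyp2c67 was at 229, 98.9, 39.0 and 54.0 RPKM, an interaction of 1.66. It fell in flox livers, and its knockout levels lay below both flox levels, so here a positive interaction went with low knockout levels. Cyp3a25 was at 272, 309, 270 and 123 RPKM, an interaction of -1.31, and Cyp3a59 beside it had -1.66. The fatty acid omega-hydroxylases Cyp4a10, Cyp4a14 and Cyp4a31, targets of PPARA, were the 3 positive calls among 47 fatty acid oxidation genes. Cyp4a10 was at 145, 156, 30.2 and 90.8 RPKM, an interaction of 1.45. Cyp4a14 was at 55.6, 36.8, 31.5 and 78.5 RPKM, an interaction of 1.87. The 47 genes together had a median of -0.38, with Acaa1b, a peroxisomal thiolase, at -1.01. The Cyp2c and Cyp4a clusters hold close copies whose reads may be shared.

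Sex-biased liver genes, which growth hormone pulses set in mice, moved in both directions. Of 19 male-biased genes, 6 (31.6%) were negative, against 0.572% of all genes, and none positive, with a median of -0.62. The diet lowered 10 of the 19 past the threshold in knockout livers. Under the rescalings 2 were called. Moxd1, a monooxygenase-like gene, was at 8.41, 12.3, 20.3 and 3.95 RPKM, an interaction of -2.61. Mup3, a major urinary protein, was at 12046, 10171, 7585 and 3042 RPKM, an interaction of -1.07. Mup21 was at 498, 393, 434 and 117 RPKM, an interaction of -1.55. Of 15 female-biased genes, 3 (20%) were positive (Cyp2a4, Cyp2b9 and Cyp17a1), against 0.659% of all genes, and none negative. The list's median was 0.28. In it 1 gene was called with a pseudocount of 5 RPKM, and 5 positive and 1 negative with 0.1 RPKM. Bcl6, a repressor of female-biased genes, was at 8.43, 12.7, 11.3 and 6.72 RPKM, an interaction of -1.22. The sex of each pool is not given in the sources used here. Xist, an RNA of female cells, was at 0.0430, 0.00989, 0.0329 and 0.0402 RPKM, near 0 in all 4 groups, and sex was not tested further. The Mup genes are closely related copies, and several of their rows, Mup1 and Mup12 among them, were listed at 0 in all 4 groups. The values of Mup3, Mup20 and Mup21, which are among the 6 negative calls, are therefore uncertain.

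Genes of amino acid catabolism leaned negative. Of 47 genes of the urea cycle and amino acid breakdown, 45 had an interaction below 0, with a median of -0.46 against -0.10 over all genes. Of the 47, 3 (6.38%) were called negative, against 0.572% of all genes. The diet lowered 11 of them past the threshold in knockout and none in flox livers. With the rescalings 1 and 0 calls remained. Hal, histidine ammonia-lyase, was at 109, 90.4, 79.7 and 29.3 RPKM, an interaction of -1.14. Bhmt, which remethylates homocysteine, was at 1321, 1345, 1710 and 816 RPKM, an interaction of -1.09. Cps1, the first enzyme of the urea cycle, was at 377, 380, 343 and 184 RPKM, an interaction of -0.91. For each of Hal, Bhmt and Cps1 the knockout high fat level was the lowest of the 4. Of 55 listed nuclear-encoded subunits of oxidative phosphorylation, 54 were below 0 and none was called, with a median of -0.42, which was -0.28 and -0.26 under the rescalings. Ndufb6 and Ndufb2, complex I subunits outside that list, were called at -1.01 and -1.03. Cyp8b1, the sterol 12-hydroxylase of bile acid synthesis, was at 183, 104, 230 and 63.3 RPKM, an interaction of -1.03.

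**Figure D4:**
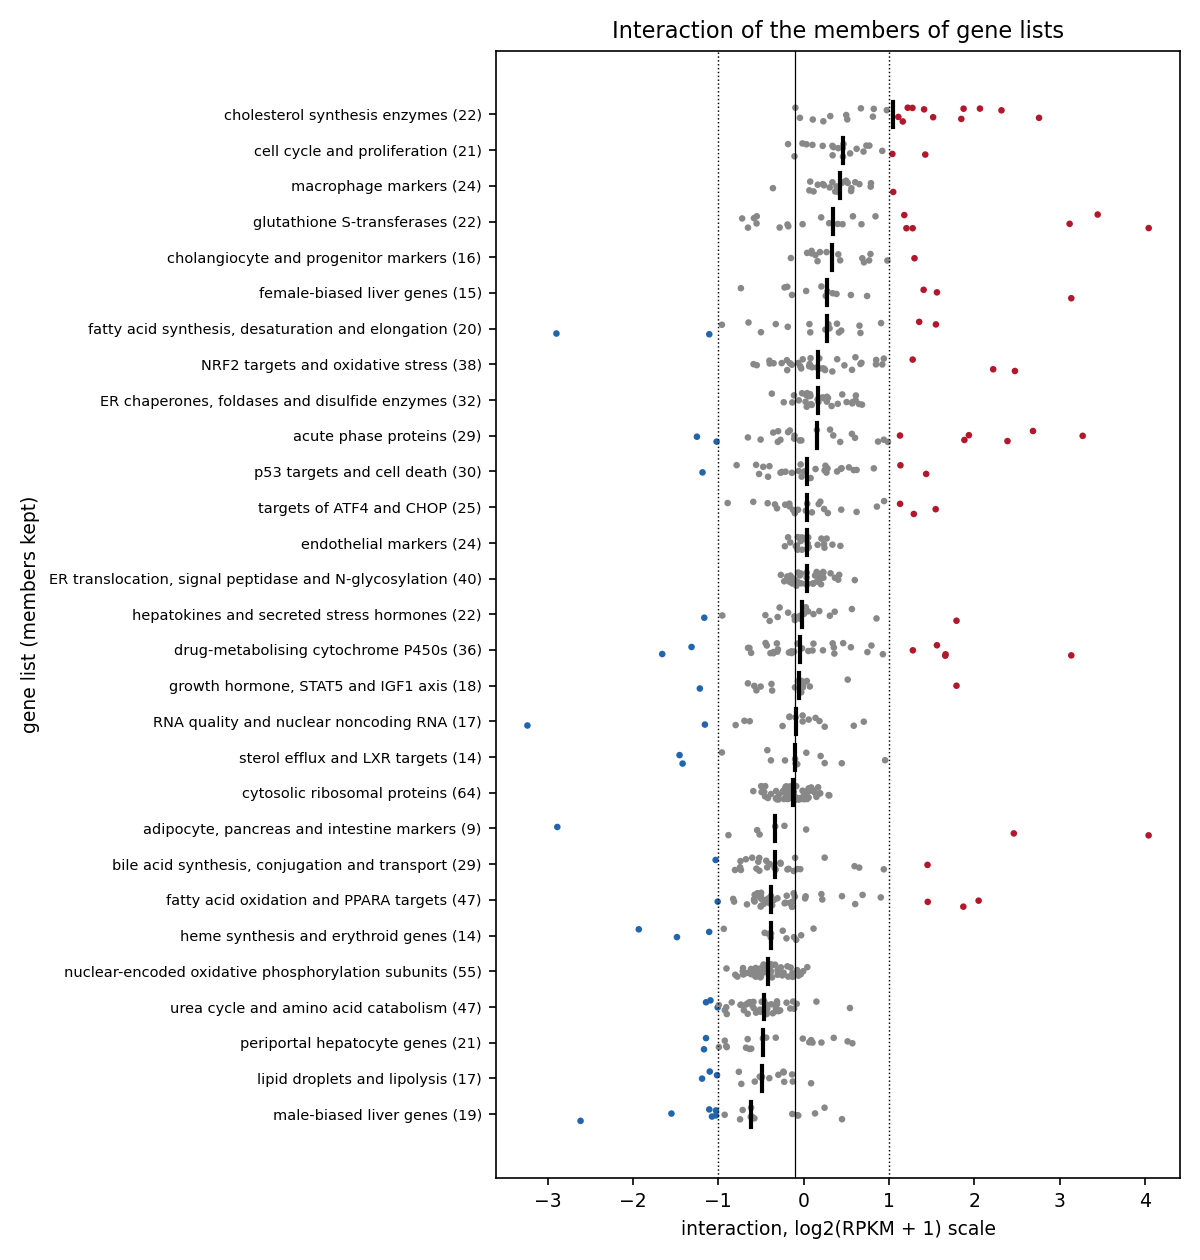
Interaction (log2(RPKM + 1) scale) of each member of gene lists, 1 point a gene, with the list's median as a thick tick, the all-gene median of -0.10 as a thin line and thresholds of 1 and -1 as dotted lines. Cholesterol synthesis has the highest median of the lists drawn, 1.04, and male-biased genes the lowest, -0.62.

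Summed markers of macrophages, cholangiocytes, stellate cells, and lymphocytes with neutrophils were highest in knockout livers on high fat diet. Those of hepatocytes were lowest there. The summed level of the 13 hepatocyte-defining genes measured was 38793, 36325, 29803 and 21878 RPKM, so knockout livers on high fat diet were at 0.564 of flox livers on chow, beside 0.715 for the sum over all genes. Of the 13, 11 had an interaction below 0 and 2 above. Apoa1, at 12127, 11271, 7301 and 4793 RPKM, and Fabp1, at 7049, 8196, 4739 and 3703 RPKM, carried much of the fall. Ahsg was at 4489, 4098, 4572 and 4164 RPKM and Pck1 at 422, 482, 711 and 582 RPKM. Albumin, a hepatocyte gene, was listed at 0 in all 4 groups and could not be used. The summed macrophage markers were 409, 466, 411 and 657 RPKM, and 23 of 24 had an interaction above 0. Trem2, a receptor of lipid-associated macrophages, was at 0.385, 0.349, 0.635 and 2.30 RPKM, the 1 call of that list with 1.05, lost with a pseudocount of 5 RPKM. Cholangiocyte and progenitor markers summed to 234, 228, 271 and 350 RPKM, and 15 of 16 had an interaction above 0. Spp1, Krt8 and Krt18 made up most of that sum. Krt8 was at 97.0, 94.1, 108 and 112 RPKM and Krt18 at 87.9, 79.0, 91.3 and 84.5 RPKM. Spp1, osteopontin, was at 19.7, 20.6, 39.4 and 103 RPKM, an interaction of 1.30 and the 1 call of that list, which had 5 calls with a pseudocount of 0.1 RPKM and 2 under the rescalings. Stellate cell markers summed to 202, 202, 234 and 284 RPKM, with no call among 18 and 16 interactions above 0. Dcn, the most abundant of them, was at 86.7, 80.0, 108 and 130 RPKM. Lymphocyte, natural killer cell and neutrophil markers summed to 28.6, 34.2, 37.6 and 44.6 RPKM. Of 26 in the files, 19 stayed under 1 RPKM in every group. The 7 measured had no call, with 4 interactions above 0 and 3 below. Endothelial markers stayed between 227 and 241 RPKM, with no call among 24. Fewer cells of a type and less RNA per cell cannot be told apart in these bulk livers, and the part of these marker levels in the other gene groups was not tested.

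Red blood cell genes held negative calls. The globin genes Hba-a1 and Hba-a2, given as 1 row, were at 1124, 1526, 1591 and 772 RPKM, an interaction of -1.48. Hbb-b1 and Hbb-b2, also 1 row, were at 105, 157, 163 and 63.0 RPKM, an interaction of -1.93. Of 14 heme and erythroid genes, 3 (21.4%) were negative, against 0.572% of all genes. The summed level of the list was lowest in knockout livers on high fat diet, at 0.711 of flox livers on chow, close to the 0.715 of all genes summed. Blood left in the tissue was not measured.

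**Figure D5:**
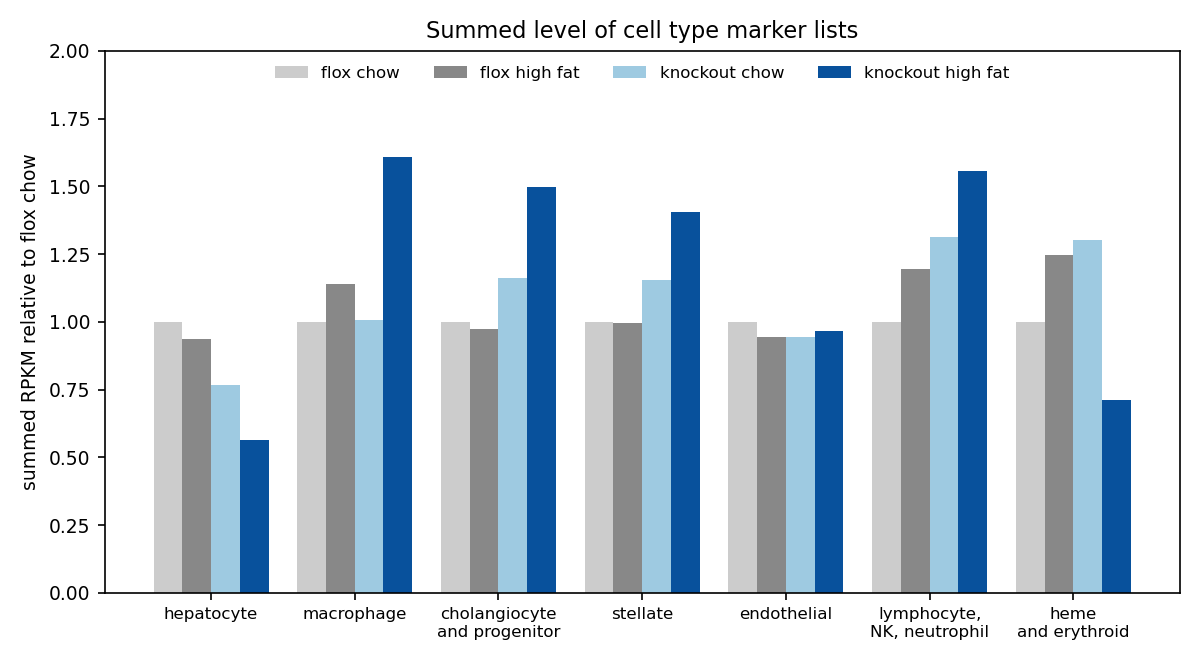
Summed RPKM of each cell type's marker list, divided by its value in flox livers on chow, 1 bar a group. In knockout livers on high fat diet the macrophage list stood at 1.61, the stellate cell list at 1.41 and the hepatocyte list at 0.564.

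Other negative calls belonged to regulators of other kinds. Rgs16, a regulator of G protein signalling that responds to carbohydrate feeding, was at 10.2, 38.7, 27.9 and 29.2 RPKM, an interaction of -1.76. Arrdc3, an arrestin-like gene, was at 25.0, 52.4, 44.2 and 24.5 RPKM, an interaction of -1.86. Rpph1, the RNA component of RNase P, was at 9.31, 41.9, 78.6 and 34.1 RPKM, an interaction of -3.24. Short noncoding RNAs such as Rpph1 depend on how libraries were made, and the effect of that on its value was not tested.

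Called genes were shorter than the rest. Of the 10234 kept genes with a length, the median transcript was 3210 bases. It was 2095 bases for the positive and 1720 for the negative genes. In the shortest tercile of transcripts 45 genes were positive and 41 negative, in the longest 10 and 7. The median interaction was -0.12, -0.11 and -0.08 from the shortest to the longest tercile. Of the 68 positive genes 14 stayed under 5 RPKM in every group, and of the 59 negative ones 8. By mean level over the groups, the lowest tercile held 19 positive and 12 negative genes, the middle 15 and 7, and the highest 34 and 40. Whether length or level contributed to the calls was not tested.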

How the data were processed

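Liver RNA was sequenced in 8 libraries, 2 for each of 4 groups, the cohort of 4 mice of a group being pooled into its 2 libraries. The deposited files hold 23179 rows each with 1 RPKM value a gene and group, per the file headers; how the authors combined the libraries is not given in the sources used here. Per the submitters' processing notes the tools were TopHat2 2.0.7 and Cuffdiff 2.1.1 and the build mm10; their roles are not stated. Read depth is unknown, so no interval could be given.

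The files were joined on gene symbol (pandas 2.3.3 and numpy 2.4.6 under Python 3.11.15) and 158 repeated symbols were summed. Genes with at least 1 RPKM in some group and no exact 0 were kept, a pseudocount of 1 RPKM was added before the log2, and a value past 1 or -1 was called. Named genes were, by rule, the 15 most extreme on each side with at least 5 RPKM in some group, the 4 most extreme of each list, 5 of each response class and a few named regulators. Further called members of the lists (Saa3, Orm1, Lbp, Ndufb2, Lss, Pmvk, Dhcr7, Gsta2 and Cyp3a25), genes at the edge of the threshold and those changed in both genotypes were added after their values were seen. The members and all 52 gene lists were chosen with earlier results of these data known, so no list is independent support. Coordinates are from GENCODE M21 (GRCm38) and matched 99.2% of kept genes; promoters are from RefSeq (GRCm38.p6). The calculation was tested on simulated data. Some list members are counted but not reported singly here. Alternatives were other pseudocounts, filters, thresholds and scalings.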

Additional observations from a re-analysis of the deposited data

Results flagged for a closer look

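In 3 genes the diet change passed 1 log2 unit in opposite directions in the genotypes, and in none of them could the difference be tested, since each group has 1 deposited value. Gstm3 fell from 60.0 to 19.4 RPKM in flox and rose from 68.9 to 384 RPKM in knockout livers, an interaction of 4.04. Rpph1, the RNA of RNase P, rose in flox and fell in knockout livers, an interaction of -3.24. Fmr1nb was at 0.423 and 2.593 RPKM in flox livers on chow and high fat diet and at 2.06 and 0.222 RPKM in knockout livers, an interaction of -2.66, on levels that stayed under 5 RPKM in every group.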

How the results depend on the processing

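As deposited there were 68 positive and 59 negative calls, of which 33 positive and 29 negative were changes in knockout livers alone, and 14 and 9 in flox livers alone. With a pseudocount of 0.1 RPKM the counts were 143 and 97, with 74 positive in knockout livers alone and 23 positive and 21 negative in flox livers alone. With a pseudocount of 5 RPKM they were 38 and 30, with 17 and 14 in knockout and 9 and 5 in flox livers alone. A threshold of 1.5-fold gave 239 and 313, with 115 and 163 in knockout and 34 and 34 in flox livers alone. Requiring 1 RPKM in every group left 19 positive in knockout and 5 negative in flox livers alone, and keeping exact zeros gave 14 negative in flox livers alone. Rescaling to a common median gave 36 negative calls, 13 of them in knockout livers alone. Rescaling to a common sum without the top genes gave 105 and 35, with 58 and 11 in knockout livers alone. No named gene with a call reversed its sign under the alternatives run, and of 85 named genes with a call 38 kept it under all 9 alternatives run on genes, 42 lost it under at least 1, and 5 (S100g, Scd3, Cfd, Cbr3 and Ly6d) kept it where they were evaluated but did not reach 1 RPKM in every group. No paired analysis was possible because each group has 1 deposited value and the columns carry no replicate, and leaving out replicates could not be run for the same reason. Depth is unknown, so what it limits could not be computed.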

Other observations

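Some abundant liver genes lay outside the interaction because a group was listed at exactly 0. The genes left out in this way were 11 other than small RNAs and 21 small RNA genes. Not all of the 11 were abundant: Gldn reached at most 1.26 RPKM and Spink3 at most 3.58. Albumin and several Mup rows, listed at 0 in all 4 groups, are not in these counts, since they did not reach 1 RPKM in any group. Apoe, the apolipoprotein E gene, was listed at 13172 RPKM in flox livers on chow, 0 on high fat diet, 11145 in knockout livers on chow and 0 on high fat diet. Scd1, the main stearoyl-CoA desaturase of liver, was listed at 929, 0, 264 and 894 RPKM in the same order. Several Serpina1 genes, which encode the antitrypsin of plasma, were also listed at 0 in 1 or more groups. Values of 0 in genes that liver uses at high levels may be failed estimates, so no fold was computed for them.

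Called genes also lay side by side in the genome. Within 200000 bases of each other and in 1 direction were 3 Gstm genes, 3 Gsta-type genes, 3 Saa genes, 3 Cyp4a genes and 3 Cyp2c genes among the positive calls, and Mup20, Mup3 and Mup21 among the negative ones.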
